A study of Mus musculus with 6 samples.

Results

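The genes described here are 53 proliferation and mitosis genes, chosen by gene symbol from lists of replication licensing, S phase and mitosis genes. All 53 were found among the 24972 gene rows of the table. They were measured in 6 libraries of heart cells from MX1gfp mice, a strain with green fluorescent protein as a reporter of the interferon-stimulated gene Mx1. In the vehicle group, 3 mice were injected intraperitoneally with sterile phosphate-buffered saline. In the other group, 3 mice received a single intraperitoneal dose of doxorubicin at 25 mg per kg body weight, an anthracycline that poisons topoisomerase II and breaks DNA. Each injection was 100 microlitres, and hearts were taken 48 hours later. Every mouse carried the reporter allele, and the labels give neither sex nor age. Hearts were digested with collagenase, the atria were removed, and the ventricular myocytes were collected by gravity settling, which enriches for cardiomyocytes but does not sort them.

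A dividing cell loads the MCM helicase onto replication origins in G1, copies its DNA in S phase and separates the copies in mitosis. Cyclins activate cyclin-dependent kinases (CDKs) at each step, while CDK inhibitors and the retinoblastoma protein hold the cycle back. The E2F factors switch on replication genes, and the MuvB complex, with B-Myb and FoxM1, switches on mitosis genes later. When p53 is active, its target p21, encoded by Cdkn1a, allows the DREAM repressor to silence both sets. Adult cardiomyocytes rarely divide, and the cycling cells of an adult heart are mostly endothelial, stromal and immune cells.

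Levels below are normalized read counts from the deposited table. Judged by the spacing of the low values, the libraries rested on about 3670000 to 6170000 reads after doxorubicin and 7710000 to 11370000 after vehicle, and 1 read was worth about 0.635 to 1.48 normalized counts. Every doxorubicin library was shallower than every vehicle library. The defining cardiomyocyte genes Myh6, Tnnt2 and Actc1 were at 10311 normalized counts or more in all 6, but 10 cardiomyocyte markers summed to 610433 to 732233 after vehicle and to 551537, 184489 and 160360.0 in doxorubicin replicates 1 to 3. Doxorubicin replicate 1 stood nearest to the vehicle libraries in that sum, so calls without it are given beside those with all libraries. That choice was made from the values of these same data. Calls without replicate 1 therefore describe the other libraries and are no separate support for a difference. In bulk RNA, fewer cells of a type and less RNA per cell cannot be told apart, which holds for every gene here.

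The proliferation and mitosis genes did not move as a block after doxorubicin. The MCM helicase genes Mcm3, Mcm6 and Mcm7, the CDK inhibitors Cdkn1b and Cdkn2c, the phosphatase gene Cdc25b and the p53-inducible gene Gtse1 were higher. The proliferation marker Mki67, the centromere genes Cenpa and Cenpf and the cyclin and kinase genes Ccna2, Ccnb2 and Aurka did not follow them. They were below every vehicle library in doxorubicin replicates 2 and 3 and, except for Cenpa, not in replicate 1. Ccnb2 and Aurka were too low to be tested. Of the 7 mitotic kinase, checkpoint and ubiquitin ligase genes, 3 had a negative and 4 a positive log2 fold change. Among these 4 were Cdc20 (0.57), Bub1b (0.31) and the untested Plk1 (1.05). Of the 38 genes of the set that entered the test, 15 (39.5%) were below every vehicle library in replicates 2 and 3. Another 12 (31.6%) were above every vehicle library there. Over all genes tested these shares were 32.9% and 31.6%, so those of the set were not far from them. With all 6 libraries, limma called 0 of the 53 genes at a Benjamini-Hochberg adjusted p under 0.05, against 0% of the 12477 genes tested in either direction, and the smallest adjusted p among them was 0.0859. At an unadjusted p under 0.05 limma gave 8 of the 38 tested genes of the set higher and 2 lower, against 16.7% and 19.3% of all genes tested. So no gene of the set is called changed with all 6 libraries.

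Of the 53 genes, 38 had a mean of at least 10 normalized counts over the 6 libraries and entered that test. The other 15 were Cdc6, Tk1, Ccne1, Ccnb1, Ccnb2, Cdk1, E2f8, Mybl2, Bub1, Aurka, Aurkb, Plk1, Ube2c, Birc5 and Cenpe, with Cdk1 just below the minimum at a mean of 9.92 and Kif23 just above it at 11.4. Among the 38, the groups did not overlap in 10, against 41.8% of all genes tested. They were 9 genes that were higher after doxorubicin (23.7%, against 19.2% of all genes tested) and 1 that was lower (2.63%, against 22.6%). Their log2 fold changes ran from -2.07 to 2.61 with a median of 0.06, beside a median of -0.0046 over all genes tested. A log2 fold change of -1 or below was found in 7 of the 38 (18.4%, against 6.39% of all genes tested), and one of 1 or above in 2 (5.26%, against 8.38%). These shares describe genes that passed a minimum set on all 6 libraries, and a low gene that passed only through its higher group had to differ.

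**Figure D1:**
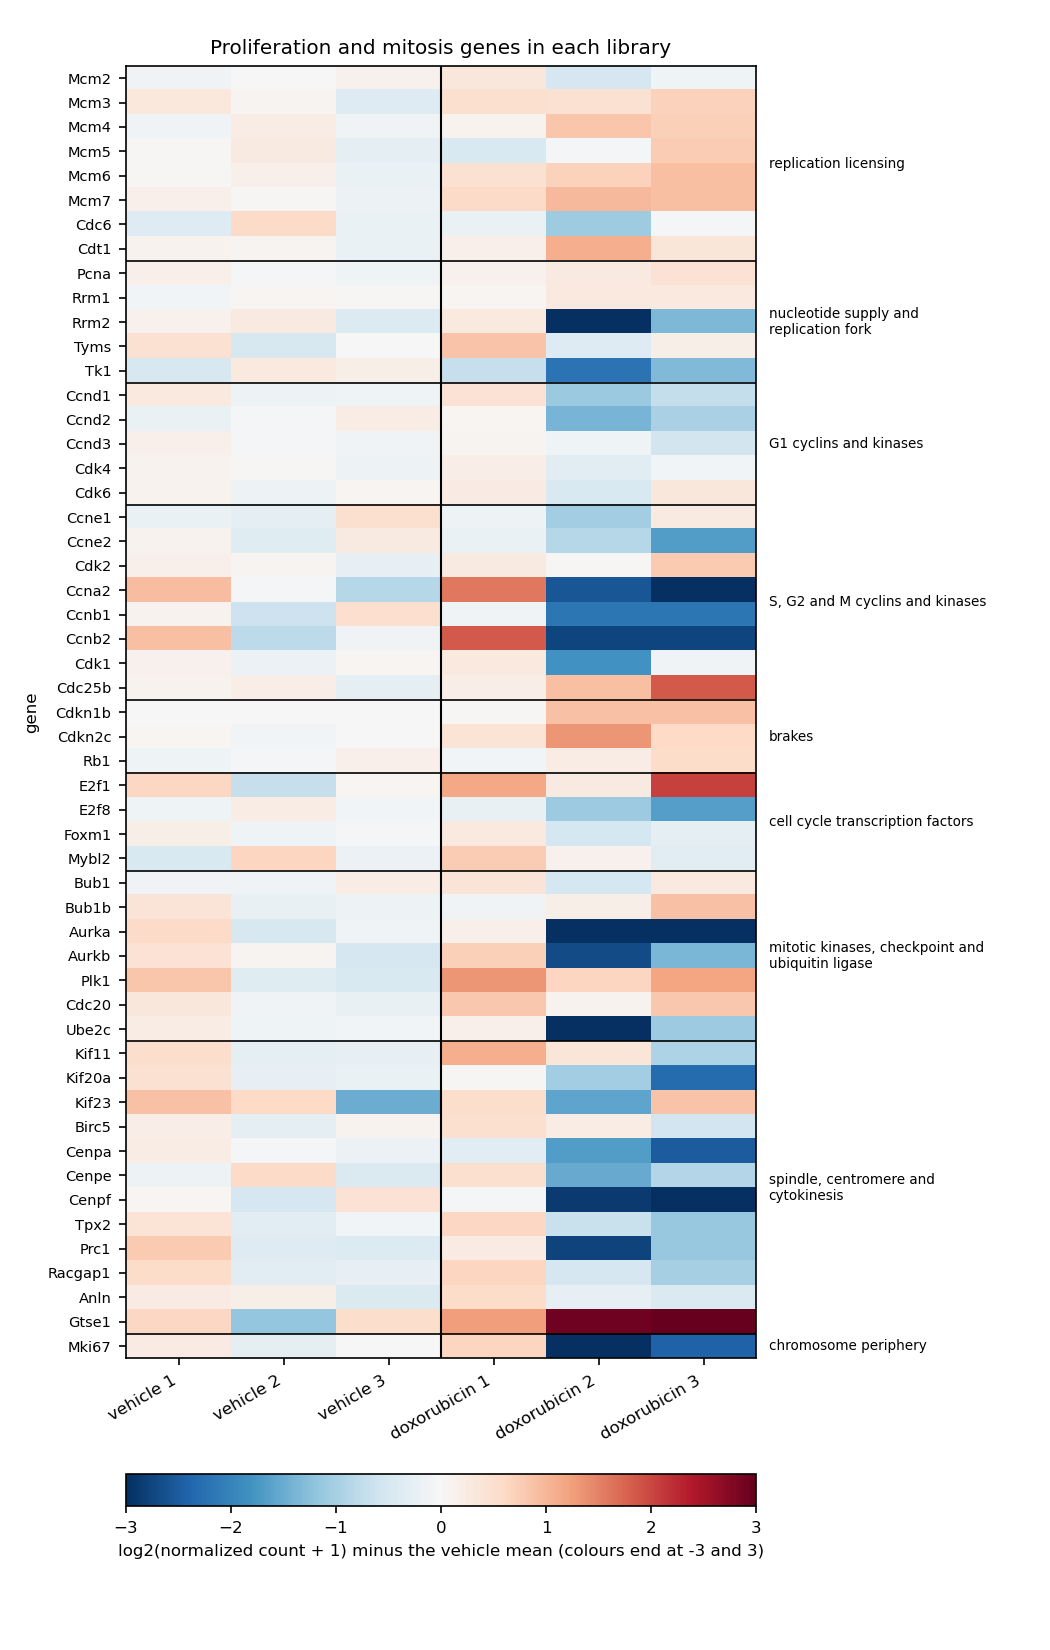
Each row is 1 of the 53 genes, grouped by role, and each column 1 library; colour gives log2(normalized count + 1) minus the mean of the 3 vehicle libraries. Replication licensing genes and brakes are mostly red in doxorubicin replicates 2 and 3, and many cyclin, kinase and spindle genes are blue there. Doxorubicin replicate 1 mostly lacks that blue, and it holds the highest value of the 6 libraries in 20 of the 53 genes.

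The doxorubicin libraries differed among themselves more than the group means show. Replicate 1 held the highest value of the 6 libraries in 13 of the 38 tested genes (34.2%), against 6.74% of all genes tested, and in 20 of all 53. Replicate 2 held the lowest value, alone or tied at 0, in 21 of the 53. When replicate 1 was left out, limma called 7 of the 38 higher (18.4%, against 19.3% of all genes tested) and 9 lower (23.7%, against 21.8%). Both shares are near those of all genes. The 7 were Mcm4, Mcm6, Mcm7, Cdc25b, Cdkn1b, Cdkn2c and Gtse1, and the 9 were Rrm2, Ccnd1, Ccnd2, Ccne2, Ccna2, Kif20a, Cenpa, Cenpf and Mki67. None of the 53 was at 0 in any vehicle library or in doxorubicin replicate 1, whereas 5 were listed at 0 in replicate 2 and 4 in replicate 3.

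Promoter sequences are given here because several replication genes and several mitosis genes differed in opposite directions. RefSeq promoters of GRCm38.p6, from 250 bases before to 50 after the start, were matched by symbol for 43 of the 53 genes, in 48 windows of 300 bases. Letters of 3 motifs were searched on both strands: the cell cycle genes homology region (CHR, TTTGAA), to which the MuvB complex binds, the CCAAT box of NF-Y (CCAAT), and E2F sites (TTCCCGC or TTGGCGC). E2F and CCAAT letters can overlap, as they do in the Mcm7 window. CHR letters stood in 16 of 25 windows of the cyclin, kinase and mitosis genes (64%), in 1 of 13 windows of the replication genes (7.69%) and in 17.9% of all 32851 promoters. E2F letters stood in 4 of the 25 (16%), 8 of the 13 (61.5%) and 6.81% of all promoters. CCAAT boxes stood in 22 of the 25 (88%), 9 of the 13 (69.2%) and 37.4% of all promoters. A match describes letters in a window and not a bound site. In the sequences below, 5′ to 3′, capitals mark the letters of any of the 3 motifs.
Mki67, chr7:135716330-135716629, minus strand: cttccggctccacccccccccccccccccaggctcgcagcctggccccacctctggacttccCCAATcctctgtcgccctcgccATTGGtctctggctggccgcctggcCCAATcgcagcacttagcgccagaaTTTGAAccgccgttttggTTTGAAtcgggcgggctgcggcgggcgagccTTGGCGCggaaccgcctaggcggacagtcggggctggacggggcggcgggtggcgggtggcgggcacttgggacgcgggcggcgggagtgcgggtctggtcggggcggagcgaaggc
Cenpa, chr5:30666636-30666935, plus strand: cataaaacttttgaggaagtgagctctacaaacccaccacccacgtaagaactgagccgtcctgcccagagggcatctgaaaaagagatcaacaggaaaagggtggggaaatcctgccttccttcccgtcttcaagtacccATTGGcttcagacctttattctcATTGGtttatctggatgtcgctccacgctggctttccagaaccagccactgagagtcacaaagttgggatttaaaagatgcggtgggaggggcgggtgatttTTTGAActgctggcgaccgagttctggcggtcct
Cenpf, chr1:189688037-189688336, minus strand: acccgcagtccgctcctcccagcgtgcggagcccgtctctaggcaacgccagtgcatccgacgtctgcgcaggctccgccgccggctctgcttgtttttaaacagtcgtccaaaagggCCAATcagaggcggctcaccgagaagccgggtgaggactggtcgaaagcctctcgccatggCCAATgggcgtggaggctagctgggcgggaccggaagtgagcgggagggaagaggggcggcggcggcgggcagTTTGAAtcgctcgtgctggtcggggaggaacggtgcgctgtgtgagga
Aurka, chr2:172370521-172370820, minus strand: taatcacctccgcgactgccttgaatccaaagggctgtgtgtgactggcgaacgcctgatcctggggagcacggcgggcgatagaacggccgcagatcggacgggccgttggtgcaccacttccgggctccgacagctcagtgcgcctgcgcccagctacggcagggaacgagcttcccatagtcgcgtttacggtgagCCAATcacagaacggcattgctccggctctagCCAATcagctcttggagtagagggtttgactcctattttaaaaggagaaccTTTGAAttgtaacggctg
Mcm6, chr1:128359656-128359955, minus strand: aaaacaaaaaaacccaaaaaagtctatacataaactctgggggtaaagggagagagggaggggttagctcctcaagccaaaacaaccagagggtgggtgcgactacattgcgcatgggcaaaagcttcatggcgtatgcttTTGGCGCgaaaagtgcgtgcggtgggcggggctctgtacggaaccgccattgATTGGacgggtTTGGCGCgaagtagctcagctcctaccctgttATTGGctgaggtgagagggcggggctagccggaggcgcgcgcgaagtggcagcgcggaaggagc
Mcm7, chr5:138171834-138172133, minus strand: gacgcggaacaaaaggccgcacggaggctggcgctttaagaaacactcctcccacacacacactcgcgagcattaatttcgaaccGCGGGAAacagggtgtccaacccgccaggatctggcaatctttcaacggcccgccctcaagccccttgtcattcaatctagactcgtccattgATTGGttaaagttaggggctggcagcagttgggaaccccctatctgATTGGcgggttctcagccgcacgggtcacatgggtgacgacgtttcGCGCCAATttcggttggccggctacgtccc
Gtse1, chr15:85859457-85859756, plus strand: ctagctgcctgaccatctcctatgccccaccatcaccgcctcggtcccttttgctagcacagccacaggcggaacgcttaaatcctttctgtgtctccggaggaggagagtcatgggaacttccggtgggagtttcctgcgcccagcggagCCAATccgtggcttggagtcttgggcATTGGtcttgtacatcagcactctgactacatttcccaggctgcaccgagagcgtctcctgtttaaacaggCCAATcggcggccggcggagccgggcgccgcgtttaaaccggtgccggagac

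The windows printed were picked by hand, with earlier results of these data known, so they do not represent the set. The first 4 windows belong to genes that were lower in doxorubicin replicates 2 and 3, and each holds CHR letters and at least 2 CCAAT boxes, with an E2F match besides in Mki67. The Mcm6 and Mcm7 windows belong to genes that were higher and hold E2F letters in place of CHR letters. Gtse1 was also higher, and its upstream window holds 3 CCAAT boxes and neither CHR nor E2F letters as searched. Over the 43 genes with a promoter, 17 had CHR letters, and 13 of these had a negative and 4 a positive log2 fold change. The 4 were Bub1b (0.31), Cdc20 (0.57), Plk1 (1.05) and Kif11 (0.18), whose windows are not printed. Without doxorubicin replicate 1, the groups did not overlap in 10 of those 17, all lower, while of the 26 without CHR letters 5 were lower and 10 higher. These counts include genes too low to be tested. The shares of 32.9% lower and 31.6% higher cover only the 12477 genes tested, so the sets are unlike. Over the tested genes with a promoter, the share that was lower in this sense was 33.4% with CHR letters and 33.1% without, nearly the same. Of the genes of the set with enough counts to be tested, 6 of 11 with CHR letters (54.5%) and 2 of 18 without them (11.1%) were lower in this sense. The members were known when the motifs were chosen, and the difference between them was not tested.

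**Figure D2:**
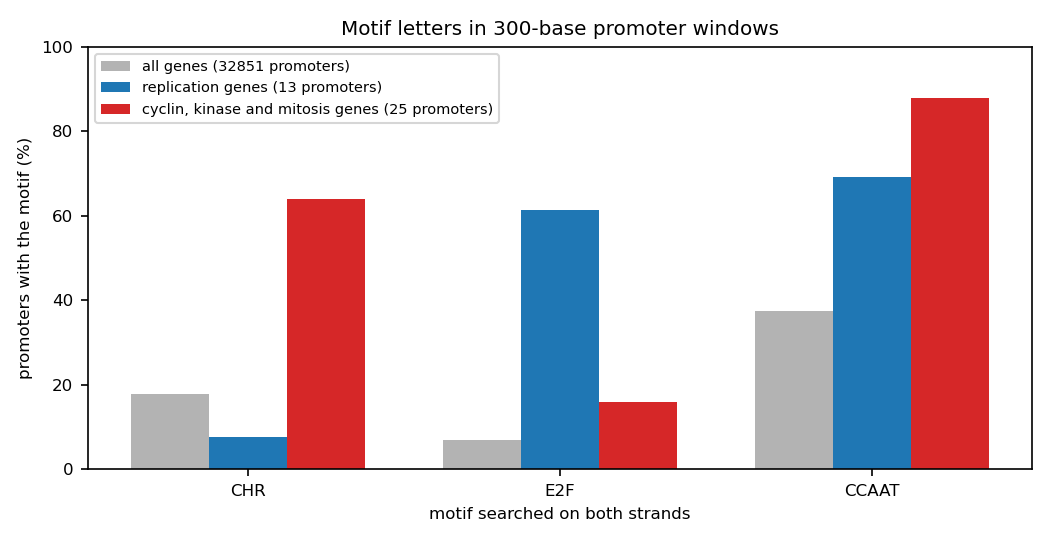
Bars give the percentage of 300-base promoter windows, on the vertical axis from 0 to 100, that hold CHR, E2F or CCAAT letters on either strand, for all genes, the replication genes and the cyclin, kinase and mitosis genes. CHR letters are most frequent in the last group at 64%, and E2F letters in the replication genes at 61.5%.

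Of 8 replication licensing genes, 7 were tested and 0 were called with all libraries. In 4 of the 7 every doxorubicin value lay above every vehicle value (Mcm3, Mcm6, Mcm7 and Cdt1; 19.2% of all genes tested did so), and 6 of the 7 had a positive log2 fold change. Mcm2 to Mcm7 encode the 6 subunits of the helicase that opens origins, and Cdc6 and Cdt1 load it. Mcm7 (chromosome 5, 138164583 to 138172111, GRCm38) had 83.8, 77.4 and 67.4 normalized counts after vehicle (replicates 1 to 3, in that order here and below) and 113, 150.2 and 144 after doxorubicin. Its doxorubicin values all lay above its vehicle values, with means of 76.2 ± 8.26 and 136 ± 20.0 (SD, n = 3 in each group; log2 fold change 0.82, SE 0.19, limma adjusted p 0.0859). Mcm6 (chromosome 1, 128331575 to 128359705) had 85.8, 93.5 and 72.6 against 115, 135 and 156, again without overlap (log2 fold change 0.68, SE 0.19, limma adjusted p 0.0859). For both genes the call was made without doxorubicin replicate 1, with a limma adjusted p of 0.00477 for Mcm7 and 0.0120 for Mcm6.

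Mcm3 had 71.9, 60.4 and 43.6 after vehicle and 81.1, 79.3 and 93.6 after doxorubicin, without overlap (log2 fold change 0.55, SE 0.23, limma adjusted p 0.132). Mcm4 had 74.3, 94.3 and 74.3 against 87.1, 143 and 134; doxorubicin replicate 1 lay within the vehicle range, and without it the log2 fold change was 0.78 (limma adjusted p 0.0130). Mcm2, at 69.5, 74.6 and 82.6 against 96.1, 53.1 and 68.8, and Mcm5, at 38.7, 46.0 and 30.5 against 27.5, 36.2 and 65.0, had overlapping groups and log2 fold changes of -0.09 and 0.08. The 6 subunits form 1 ring, but their transcripts therefore did not all differ in 1 direction, and that of Mcm2 turned positive when libraries were scaled to equal totals or when doxorubicin replicate 2 was left out. Cdt1, the licensing factor that geminin restrains, had 16.2, 16.1 and 13.1 against 16.9, 33.0 and 19.6, without overlap but with a limma adjusted p of 0.314. Cdc6 was low throughout, at 4.48 to 9.62 after vehicle and 2.41 to 5.87 after doxorubicin. Summed over the 8 licensing genes, the level was 445, 472 and 389 after vehicle and 541, 633 and 686 after doxorubicin.

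Genes of nucleotide supply and of the replication fork split. Pcna, the sliding clamp of DNA polymerase and also a p53 target, had 352, 307 and 290.5 against 344, 378 and 425, with overlap (log2 fold change 0.27, SE 0.15, limma adjusted p 0.227). Rrm1, the large subunit of ribonucleotide reductase, had 158, 173 and 171 against 174, 205 and 204, a small difference without overlap (log2 fold change 0.21, SE 0.15, limma adjusted p 0.316). Its S phase partner Rrm2 went the other way in 2 libraries, with 26.2, 28.8 and 17.7 against 29.3, 1.21 and 8.73. Rrm2 in doxorubicin replicate 1 was above every vehicle library and in replicate 2 stood at about the worth of 1 read. The log2 fold change of Rrm2 was -1.51 (SE 0.88, limma adjusted p 0.243) and, without replicate 1, -2.42 (limma adjusted p 0.0223). Thymidine kinase Tk1, under the minimum mean, had 6.32, 11.5 and 10.4 against 5.29, 1.20 and 3.02, so that every doxorubicin value lay below every vehicle value. Thymidylate synthase Tyms had 26.9, 13.5 and 19.4 against 35.7, 14.4 and 21.9 and overlapped.

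The D-type cyclins, which carry growth signals to CDK4 and CDK6 in G1, were among the most abundant genes of the set. Per kilobase of exon in the vehicle libraries, Ccnd1 had 184 ± 32.6 normalized counts (SD, n = 3), followed by Pcna at 132 ± 13.4, Ccnd2 at 119 ± 17.7, Cdk4 at 112 ± 10.0, Ccnd3 at 68.3 ± 6.24 and Cdkn1b at 67.4 ± 0.674. Neighbours in that order from Pcna to Cdk4, and Ccnd3 and Cdkn1b, differed by less than 1 SD of the more variable gene. Levels across the set spanned a wide range on this scale, with Mcm4 at 22.6 ± 3.22, Mki67 at 5.95 ± 1.05, Ccna2 at 3.36 ± 2.18, Cdk1 at 2.25 ± 0.265 and Ccnb1 at 0.873 ± 0.402. Ccnd1 (chromosome 7, 144929931 to 144939831) had 1045, 772 and 788 normalized counts after vehicle and 1154, 396 and 526 after doxorubicin. Ccnd2 (chromosome 6, 127125162 to 127152188) had 973, 1098 and 1302 against 1161, 425 and 569. In both, doxorubicin replicate 1 lay among or above the vehicle libraries and replicates 2 and 3 below them. The log2 fold changes of -0.47 and -0.77 (limma adjusted p 0.386 and 0.155) became -0.91 and -1.18 without replicate 1 (limma adjusted p 0.00797 and 0.00234).

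Ccnd3 had 661, 580.3 and 556 against 633, 548 and 410.2, Cdk4 392, 373 and 329 against 419, 293 and 341, and Cdk6 114, 95.4 and 111 against 126, 77.0 and 134. The groups of all 3 overlapped, with log2 fold changes of -0.19, -0.07 and 0.04, and those of Ccnd3 and Cdk4 turned positive with equal totals. That of Cdk6 was -0.06 without doxorubicin replicate 1. The groups of each of the 5 G1 genes overlapped, where 41.8% of all genes tested had groups apart. Use of strand in the counting is not stated, and 19.7% of the exon bases of Cdk4 lie opposite the exons of Tspan31, so reads of the 2 genes may not be told apart.

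Among the later cyclins and kinases, 6 of 8 had a negative log2 fold change. Ccna2 (cyclin A2; chromosome 3, 36564865 to 36573038), needed in S phase and at entry to mitosis, had 23.5, 11.5 and 6.16 after vehicle and 37.7, 1.21 and 0 after doxorubicin. The highest and the lowest values of Ccna2 were thus both in the doxorubicin group (log2 fold change -1.56, SE 1.33, limma adjusted p 0.415), and without replicate 1 the difference was -3.13 (limma adjusted p 0.0236). Ccnb2, a mitotic cyclin under the minimum mean, had 11.5, 2.87 and 5.26 against 23.0, 0 and 0, and its relative Ccnb1 had 3.83, 1.91 and 5.30 against 3.12, 0 and 0. Both B cyclins were listed at 0 in doxorubicin replicates 2 and 3, at vehicle levels that were low as well. Cdk1, the kinase of mitosis, had 12.2, 9.63 and 11.5 against 13.6, 2.41 and 10.2. Ccne2, a cyclin of S phase entry, had 31.3, 22.3 and 35.3 against 25.0, 15.6 and 8.42 (log2 fold change -0.92, SE 0.44, limma adjusted p 0.170; without replicate 1, -1.27, limma adjusted p 0.0352), and its relative Ccne1 stayed between 2.41 and 8.74 in the 6 libraries.

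Cdk2 and Cdc25b had positive log2 fold changes. Cdk2, the partner of cyclins E and A, had 90.0, 85.3 and 67.5 against 97.6, 82.1 and 139, with overlap (log2 fold change 0.36, SE 0.24, limma adjusted p 0.294). Cdc25b (chromosome 2, 131186436 to 131198511), a phosphatase that activates CDK1, had 29.0, 30.7 and 21.7 against 30.8, 50.7 and 98.2, without overlap although replicate 1 exceeded the highest vehicle library only slightly. Its means were 27.1 ± 4.83 and 59.9 ± 34.6 (SD, n = 3 in each group; log2 fold change 0.97, SE 0.42, limma adjusted p 0.139), and without replicate 1 the log2 fold change was 1.36 (limma adjusted p 0.0141). The exons of Ccna2 and Ccne2 lie in part opposite Exosc9 and Ints8, over 12.5% and 17.4% of their exon bases. The same holds for 29.3% of Kif20a (Cdc23), 23.4% of Ccnd1 (LTO1), 22.8% of Ube2c (Tnnc2), 11.1% of Prc1 (Rccd1) and 7.25% of Mcm7 (Ap4m1). Ccnb1, Ccnb2, Ccnd3, Pcna and Tyms have annotated pseudogene copies, between which their reads could be split, so these values are less certain.

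All 3 brakes had positive log2 fold changes. Cdkn1b (chromosome 6, 134920401 to 134925525) encodes p27, an inhibitor of cyclin E and A complexes that keeps cells quiescent. It had 310.4, 306 and 304 normalized counts after vehicle and 315, 567 and 565 after doxorubicin. The vehicle values were close together, replicate 1 stood just above them, and replicates 2 and 3 were nearly equal and far higher (log2 fold change 0.60, SE 0.24, limma adjusted p 0.120; without replicate 1, 0.88, limma adjusted p 0.00172). Cdkn2c (chromosome 4, 109660876 to 109666756) encodes p18, an inhibitor of CDK4 and CDK6, and had 67.5, 60.5 and 64.9 against 85.9, 164 and 97.3, without overlap (log2 fold change 0.78, SE 0.26, limma adjusted p 0.0891; without replicate 1, 0.96, limma adjusted p 0.0155). Rb1, the retinoblastoma protein that binds E2F factors, had 254, 268 and 308 against 262, 320.2 and 403, with overlap (log2 fold change 0.23, SE 0.19, limma adjusted p 0.403).

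Of the 4 cell cycle transcription factors, 2 were tested and 0 were called. E2f1, an activator of replication genes, had 10.8, 3.75 and 7.01 against 16.1, 8.23 and 30.5, with overlap (log2 fold change 1.16, SE 0.61, limma adjusted p 0.207). Its vehicle mean was 7.18, so it entered the test through the doxorubicin libraries. E2f8, a repressor of E2F targets, was under the minimum mean with 10.2, 13.4 and 10.5 against 9.47, 4.82 and 2.94, and every doxorubicin value lay below every vehicle value. Foxm1, which drives mitosis genes, had 14.6, 11.5 and 12.2 against 15.8, 8.43 and 10.4, and Mybl2, its partner in the MuvB complex, had 1.26, 3.82 and 1.74 against 4.22, 2.42 and 1.50. Both overlapped, and Mybl2 was under the minimum mean and not tested.

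**Figure D3:**
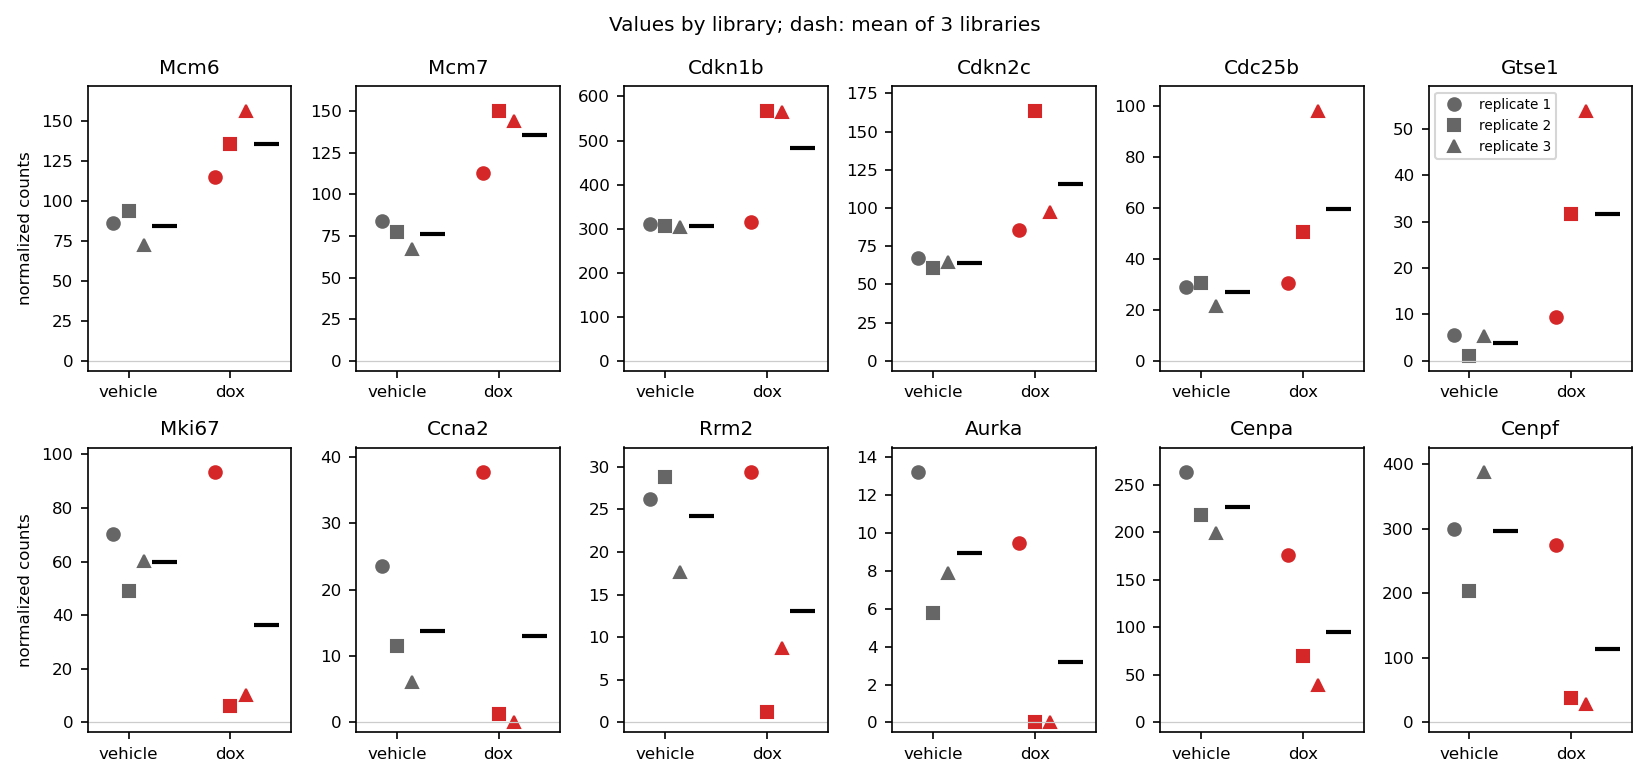
Points are the normalized counts of 12 of the genes in each library, with vehicle in grey and doxorubicin (dox) in red, marker shapes for replicates 1 to 3 and a dash for the mean of 3 libraries. In the upper row every red point lies above the grey points, whereas in the lower row replicates 2 and 3 lie below them and replicate 1 lies within or above them, except for Cenpa, where it lies just below.

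Most mitotic kinase, checkpoint and ubiquitin ligase genes were too low for the test. Aurka, the Aurora kinase of centrosomes, had 13.2, 5.78 and 7.88 against 9.50, 0 and 0, listed at 0 in replicates 2 and 3. Aurkb, the Aurora kinase of the chromosomal passenger complex, had 7.58, 5.73 and 3.50 against 9.47, 0 and 1.49. Ube2c, which supplies ubiquitin to the anaphase-promoting complex, had 8.85, 6.68 and 7.00 against 8.39, 0 and 2.99. These 3 genes shared the pattern of replicate 1 among the vehicle values or above them and replicates 2 and 3 below. The other 4 did not show it. Plk1, a kinase of mitotic entry, had 5.67, 1.90 and 1.74 against 8.43, 4.85 and 7.49. Cdc20, the activator of the anaphase-promoting complex, had 17.1, 12.4 and 11.3 against 24.3, 14.5 and 24.0 (log2 fold change 0.57, SE 0.37, limma adjusted p 0.294), and the checkpoint kinase gene Bub1b had 19.8, 12.5 and 13.1 against 13.7, 16.8 and 28.0 (log2 fold change 0.31, SE 0.40, limma adjusted p 0.595). Bub1 stayed between 1.20 and 3.14. Their groups overlapped in each case.

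Among the tested genes, the spindle, centromere and cytokinesis group held the largest log2 fold change in each direction. Cenpf (chromosome 1, 189640606 to 189688107), a kinetochore protein of G2 and mitosis, had 300.2, 204 and 387 normalized counts after vehicle and 274, 38.5 and 28.8 after doxorubicin. Replicate 1 lay inside the vehicle range, and replicates 2 and 3 lay far below it, so that the groups overlapped (log2 fold change -2.07, SE 0.77, limma adjusted p 0.107). Without replicate 1 the log2 fold change was -3.07 (limma adjusted p 0.000290). Cenpa (chromosome 5, 30666877 to 30674837), the histone H3 variant that marks centromeres, had 263, 218 and 199.6 against 177, 69.5 and 39.4. Cenpa was the only tested gene of the set with every doxorubicin value below every vehicle value, with means of 227 ± 32.6 and 95.2 ± 72.1 (SD, n = 3 in each group; log2 fold change -1.51, SE 0.48, limma adjusted p 0.0878). Without replicate 1 its log2 fold change was -2.09 (limma adjusted p 0.000789), and with equal totals its groups overlapped. Among the spindle, mitotic kinase and checkpoint genes of the 53, Cenpa and Cenpf had the highest vehicle levels per kilobase of exon. These were 38.7 ± 5.56 and 19.2 ± 5.96.

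Gtse1 (chromosome 15, 85859691 to 85876573), a microtubule-associated protein of G2 whose gene p53 induces and which in turn restrains p53, was the gene with the largest positive log2 fold change of the set. It had 5.68, 0.954 and 5.27 after vehicle and 9.39, 31.6 and 53.8 after doxorubicin, without overlap. Means were 3.97 ± 2.62 and 31.6 ± 22.2 (SD, n = 3 in each group; log2 fold change 2.61, SE 0.78, limma adjusted p 0.0859), and without replicate 1 the log2 fold change was 3.28 (limma adjusted p 0.00691). Its vehicle values were near the worth of a few reads, and it entered the test through the doxorubicin libraries. Among the other tested genes of this group, the cytokinesis kinesin gene Kif20a (log2 fold change -1.10) and the midzone gene Prc1 (-1.23) were lower, Tpx2, Racgap1, Kif23 and Anln ran from -0.40 to -0.04, and the spindle motor gene Kif11 was at 0.18, or -0.28 without replicate 1. Without that replicate Kif20a was at -1.67 (limma adjusted p 0.0426). With all libraries the limma adjusted p of these 7 genes ran from 0.238 to 0.962, and their groups overlapped. In Anln, at 19.2, 18.3 and 11.5 against 24.1, 13.3 and 11.6, the direction changed with several settings. Survivin (Birc5) and Cenpe were under the minimum mean, with 6-library means of 5.92 and 7.79.

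Mki67 (chromosome 7, 135689784 to 135716450) encodes Ki-67, which coats mitotic chromosomes and is the usual marker of cycling cells. It had 70.3, 49.2 and 60.1 normalized counts after vehicle and 93.2, 6.03 and 10.2 after doxorubicin. The value in doxorubicin replicate 1 was the highest of the 6, and those in replicates 2 and 3 were the lowest. With all libraries the log2 fold change was -1.63 (SE 0.87, limma adjusted p 0.211), within the spread of the doxorubicin group. Without replicate 1 it was -2.77 (limma adjusted p 0.000758).

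**Figure D4:**
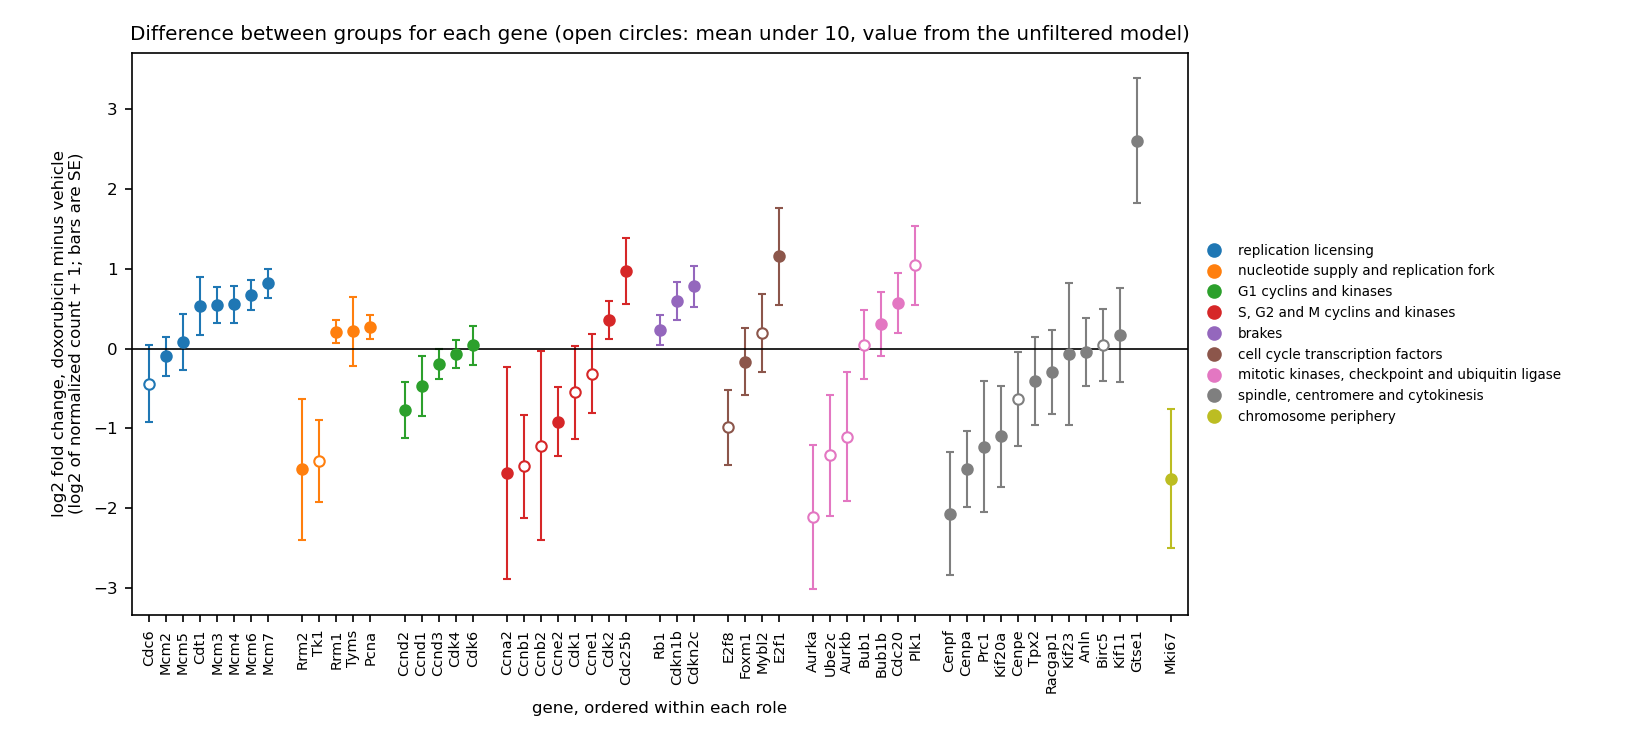
Each point is the log2 fold change of 1 of the 53 genes, doxorubicin minus vehicle, on the log2(normalized count + 1) scale, with its standard error as a bar and genes ordered within each role. Licensing genes and brakes lie mostly above 0, the later cyclins and spindle genes mostly below, and Gtse1 stands highest at 2.61.

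Markers of some other cell types also differed between the groups. The summed level of 10 macrophage markers was 2583 to 2791 after vehicle and 4238 to 15615 after doxorubicin, and 9 of the 10 had doxorubicin values all above the vehicle values. The 10 endothelial markers summed to 17094 to 23683 and 32348 to 41552 with 7 of 10 apart, and the 10 fibroblast markers to 7255 to 9535 and 10338 to 24866 with 4 of 10 apart. The 7 neutrophil markers summed to 18.7 to 37.0 and 78.2 to 616, with 4 of the 5 tested apart. Of 7 mural cell markers, 0 had groups apart. The markers counted as apart were all higher after doxorubicin, against 19.2% of all genes tested. Of the 10 cardiomyocyte markers, 7 were lower without overlap, against 22.6% of all genes tested. In doxorubicin replicate 1, which had the highest Mki67, Ccna2 and Ccnb2, the 6 erythroid markers summed to 9027, against 1211 to 2104 in the vehicle libraries and 249.8 and 421 in replicates 2 and 3. The erythroid gene Hbb-bs was at 0 in all 6 libraries. The 8 lymphocyte markers summed to 77.6 in replicate 1, against 21.0 to 34.4 in the vehicle libraries and 10.8 and 10.4 in replicates 2 and 3. The part of these cell types, and of depth, in the values of the proliferation genes was not tested.

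**Figure D5:**
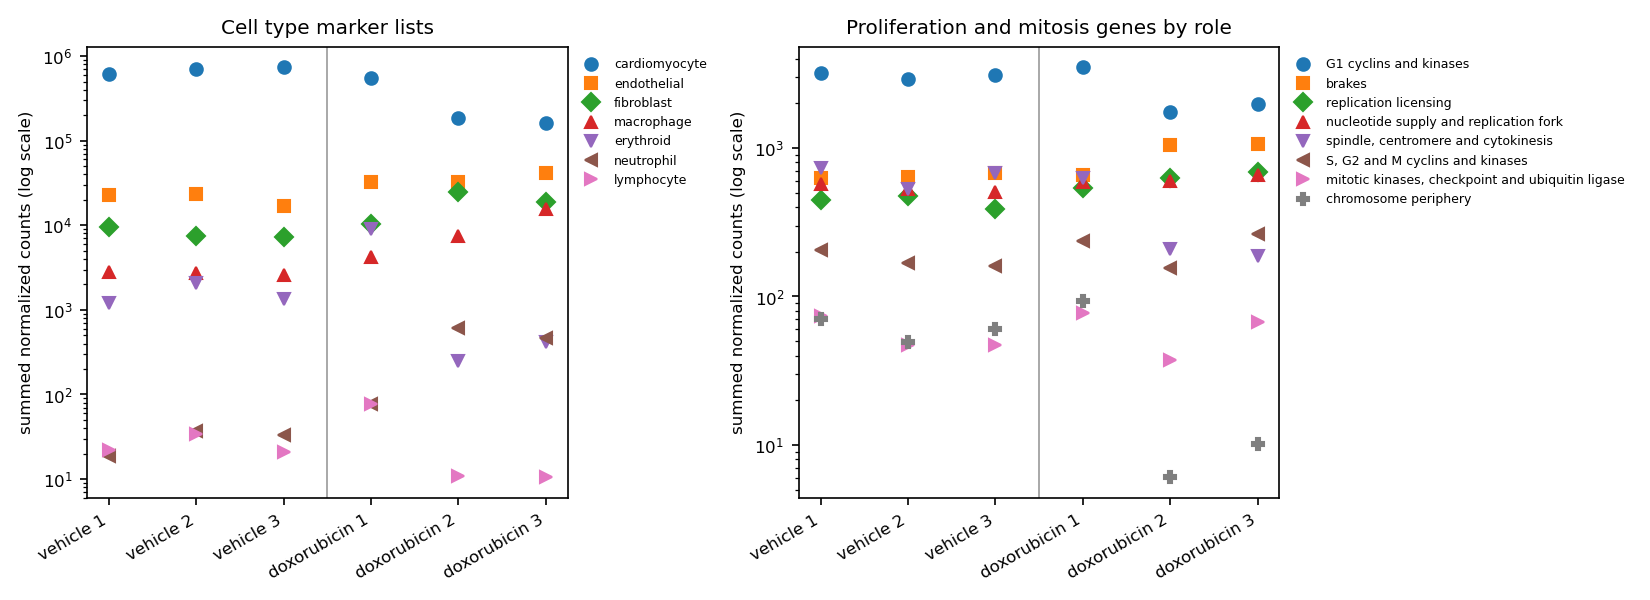
Points give summed normalized counts, on a log axis, of 7 marker lists on the left and of 8 of the 9 roles on the right, for each of the 6 libraries. Doxorubicin replicates 2 and 3 have the lowest cardiomyocyte, erythroid and lymphocyte sums and the lowest spindle gene sums and Mki67 (chromosome periphery), and doxorubicin replicate 1 has the highest erythroid and lymphocyte sums and the highest Mki67.

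Other genes of the same pathways showed a similar mixture. Limma called 0 genes in each of the 4 lists with all libraries, as it did over all genes tested. Of 40 other replication genes, 33 were tested; the groups did not overlap in 5 higher and 5 lower, against 41.8% of all genes tested, and the median log2 fold change was 0.04. The most abundant were Rpa1, a subunit of the single-strand binding protein (-0.11), Rfc1, of the clamp loader (-0.18), and Orc3, of the origin recognition complex (-0.49, limma adjusted p 0.0859). Of 48 other mitosis genes, 17 were tested, with a median of 0.14 over the tested genes. Without overlap, 5 were higher (29.4%, against 19.2% of all genes tested) and 4 lower (23.5%, against 22.6%). Over all 48 the median was -0.27, with 27 negative and 21 positive. Of the 48, 13 were listed at 0 in doxorubicin replicate 2 and 13 in replicate 3, against 1 to 6 in the vehicle libraries and 2 in replicate 1. Securin (Pttg1) had a log2 fold change of -0.45, and the condensin genes Smc4 and Ncapd2 went in opposite directions. Smc4 had 124, 142 and 144 against 172, 223 and 209 (log2 fold change 0.55, SE 0.16, limma adjusted p 0.0859), and Ncapd2 had 163, 165 and 171 against 126, 81.7 and 69.9 (log2 fold change -0.88, SE 0.23, limma adjusted p 0.0859), both without overlap.

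The CDK inhibitor Cdkn1a, the main p53 target of cell cycle arrest, had 310.3, 289 and 158 after vehicle and 433, 3774 and 2422 after doxorubicin (log2 fold change 2.70, SE 0.74, limma adjusted p 0.0859). Replicates 2 and 3, which held the lowest Mki67, held the highest Cdkn1a. The same libraries also had the lowest cardiomyocyte marker sums and the fewest estimated reads, and a link between Cdkn1a and Mki67 was not tested. The other abundant inhibitors were Cdkn1c at 0.48 and Cdkn2d at -0.00088 on the log2 scale, with overlap. Of the 16 pocket proteins, other E2F factors and MuvB subunits, 15 were tested, with a median of 0.04. Without overlap, 2 were higher (13.3%, against 19.2% of all genes tested) and 3 lower (20%, against 22.6%). The repressor E2f6, the most abundant, had 868, 941 and 924 against 749, 414 and 297 (log2 fold change -1.01, SE 0.31, limma adjusted p 0.0860), while Tfdp2, a partner of E2F factors, and Rbbp4, of the MuvB core, were at 0.04 and 0.03.

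By Xist and Y-linked transcripts, the libraries formed 2 classes that crossed the treatment groups, with vehicle replicates 1 and 2 and doxorubicin replicate 2 in the class with Y-linked transcripts. Within that class and within the class with Xist, the log2 differences were 0.89 and 0.91 for Mcm7, 3.17 and 1.93 for Gtse1, 0.88 and 0.47 for Cdkn1b, -2.65 and -2.10 for Cenpf, -1.77 and -1.24 for Cenpa and -3.09 and -0.91 for Mki67. The 2 values lay further apart in other genes, at -2.33 and 2.17 for Kif23, -2.93 and 0.18 for Aurkb, -2.99 and -0.20 for Ccna2, -3.69 and -0.12 for Rrm2 and -1.18 and -0.02 for Ccnd1. The direction was the same in both classes in 37 of the 53 genes and opposite in 16, and the median over the 38 tested genes was -0.30 and 0.28. Doxorubicin replicate 1 is in the class with Xist. Each class has a single library in 1 of the groups, so these values carry no test, and the genes printed were chosen after their values were seen.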

How the data were processed

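RNA from ventricular cells of 3 vehicle-treated and 3 doxorubicin-treated mice was sequenced. Reads were aligned with STAR 2.6.1a to mm10, and Salmon is named too, per the submitters' processing notes; the design text adds that alignment and differential expression ran on Illumina's BaseSpace. How reads were counted and scaled, and whether strand was used, is not given in the sources used here. Per the labels and the table, the deposited signal is a normalized read count for each gene and library. Low values lay within 0.1 step of whole multiples in only 80.0% to 92.5% of cases, so no count test was run.

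After log2 with a pseudocount of 1, the 12477 genes that averaged at least 10 were compared by limma 3.58.1 (R 4.3.3; trend, two-sided, Benjamini-Hochberg over all of them, threshold 0.05). Fold changes on the log2(value + 1) scale understate low genes. For genes under the minimum, plotted values come from a fit with no filter and have no test. No permutation test is given: with 3 against 3 it cannot reach 0.05. The fit was tested on simulated data in which libraries of a group differed only by random spread and the worth of 1 read. No simulated library stood apart as doxorubicin replicate 1 does, so that test does not cover such a spread. Exon lengths and overlaps are from GENCODE, gene positions and promoters from RefSeq GRCm38.p6.

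The genes and lists were chosen with earlier results of these data known. Named by rule were up to 4 genes with the highest mean in each role, tested genes whose groups do not overlap, the 3 highest genes of each pathway list, and Cdkn1a; values of further members were added after they were seen. Alternatives changed the pseudocount, filter, scaling, moderation, weights, covariates and libraries. Figures used Python 3.11.15 and matplotlib 3.10.9.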

Additional observations from a re-analysis of the deposited data

How the results depend on the processing

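Over 17 alternatives, the number of genes called stayed at 0 except in 3. With library weights, which limma sets low for doxorubicin replicate 1, 1954 of the 12477 genes tested were higher and 2318 lower. Of the 38 tested genes of the set, 6 were higher and 5 lower. Over the fits that leave out 1 library, the calls ran from 0 to 2409 higher and 0 to 2718 lower over all genes, and from 0 to 7 and 0 to 9 for the set. The upper values came without doxorubicin replicate 1, at 18.4% and 23.7% of the 38, against 19.3% and 21.8% of all genes tested. Without doxorubicin replicate 2, 1 gene was lower. Genes of the set that were lower without overlap numbered 1 with all libraries (22.6% of all genes were) and 3 of 53 with no filter (17.4%). They numbered 0 with equal totals and 2 after quantile normalization. When a library was left out they numbered 1 to 15 (3 without vehicle replicate 2). The highest count came without doxorubicin replicate 1 (39.5% of the 38, against 32.9% of all genes). Genes higher without overlap numbered 9 with all libraries (19.2% of all genes were) and 9 with no filter (16%). They numbered 13 with equal totals and 6 after quantile normalization. For these 2 scalings the shares over all genes are not tabulated. The median log2 fold change of the set was 0.36 with equal totals, where that of all genes was 0.30. The cause of these differences was not tested.

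Among the 30 tested genes named by rule, directions turned in 16 cases. With equal totals Anln was at 0.24, Ccnd3 at 0.11, Cdk4 at 0.23, Foxm1 at 0.11 and Mcm2 at 0.20, and Tyms was at -0.033 after quantile normalization. Anln was at 0.015 with the Xist or Y-linked class as a covariate. When a library was left out, Anln ran from -0.34 to 0.15, Cdk4 from -0.20 to 0.057, Foxm1 from -0.40 to 0.020, Mcm2 from -0.31 to 0.11 and Tyms from -0.10 to 0.52. For Anln, Cdk4, Foxm1 and Mcm2 the lowest value came without doxorubicin replicate 1. Of the tested genes outside that rule, Cdk6 was at -0.06 and Kif11 at -0.28 without that library, against 0.04 and 0.18 with all libraries; other settings are not tabulated for such genes.

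Same-numbered libraries did not deviate together (correlations of -0.128, 0.0332 and -0.0928), so the numbers were not taken to pair the mice. With the replicate block, limma called 0 genes higher and 0 lower, over all genes and in the set; the smallest adjusted p was 0.115. The 15 genes under the minimum mean rest on few reads per library and were not tested.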
